A study of Homo sapiens with 49 samples.

Results

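Ishikawa cells, a line from a human endometrial adenocarcinoma that carries estrogen receptor alpha, were compared after 72 h at 1000 pM ethinyl estradiol (EE), a synthetic estrogen used in birth control pills, and after 72 h in vehicle. The 12 samples were those labelled with this concentration (6 arrays) and with vehicle (6 arrays), of 49 in the series. In the 1000 pM group the phenol red-free medium with 5% charcoal-stripped serum held EE in ethanol, and in the vehicle group it held ethanol at the same 0.1% by volume. Both groups were the same line, cultured in the same way, and part of the medium was renewed daily. The other 37 arrays, at 6 lower concentrations, served to estimate the spread. Together with the 12 they also set which genes were tested and which probe set stood for each. Whether each replicate came from its own culture is not stated in the labels, and the spread behind the p-values is that among these arrays, which may be technical. In bulk RNA fewer cells of a type and less RNA per cell cannot be told apart.

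An estrogen binds its receptor in the nucleus, and the receptor then binds DNA either at estrogen response elements, which are inverted repeats of a short half-site, or through other factors such as AP-1 and SP1. Coactivators and corepressors set the outcome. In the uterine epithelium estrogen is known for driving proliferation, secretion and the induction of the progesterone receptor.

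All 11 epithelial markers examined lay above the log2 level of 4 that served as the floor of detection in both groups, as did 7 of 9 markers of Müllerian epithelium. None of the 10 endothelial, 10 leukocyte or 3 erythroid markers did in either group (0 of each), and the highest of their group means was 2.83 at 1000 pM and 2.87 in vehicle. Of 10 fibroblast markers 3 lay above it in both groups, the collagen genes COL1A1, COL1A2 and COL3A1. The estrogen receptor gene ESR1 stood at 8.21 to 8.39 (median 8.26) at 1000 pM and at 8.09 to 8.32 (median 8.26) in vehicle, so the groups overlapped, and its change was 0.04 ± 0.05 SE on the log2 scale (limma adjusted p = 0.673). One array of each group stood apart. In 1000 pM replicate 6 the 3′ probe set of beta-actin exceeded the 5′ one by 2.67 (log2) and in vehicle replicate 5 by 4.62, against 0.85 to 2.06 on the other 10 arrays, and the same difference for GAPDH was 0.40 and 1.79 against −0.14 to 0.19. Labelling starts at the 3′ end of the RNA, and this difference is a usual measure of RNA quality. Some results that rest on these arrays are given with and without them, and the others with all arrays only.

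The response was broad, with few large changes. Of 11075 genes tested 799 passed the limma threshold (Benjamini-Hochberg adjusted p under 0.05), which is 7.21%; 319 (2.88%) were higher and 480 (4.33%) lower at 1000 pM. Falls outnumbered rises in this fit of 49 arrays. The same held without 1000 pM replicate 6 and vehicle replicate 5 (269 higher, 421 lower). In the 10 arrays of both groups without these 2, fitted alone, 297 were higher and 438 lower. In the 12 arrays alone the counts were nearly equal (153 higher, 155 lower). With a replicate block in those 12 rises outnumbered falls (115 higher, 98 lower). The largest rises exceeded the largest falls. By at least 0.32 on the log2 scale 222 genes rose and 326 fell, at least 1.5-fold 116 rose and 104 fell, at least 2-fold 56 rose and 10 fell, and at least 4-fold 16 rose and 0 fell. These counts take levels under the floor as measured. For 18 called rises all vehicle arrays lay at or under it, and for 21 called falls all 1000 pM arrays did. Against the floor EGR3 and NPPC, both among the 16, were only at least 3.08-fold and 2.30-fold higher. The median change was 0.47 among the rises and −0.41 among the falls (log2). The arrays of the groups did not overlap for 356 genes (3.21%), 337 of them among the called genes.

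The calls were spread over the range of levels. With the genes in 4 equal groups by mean level, 7.91% of the dimmest were called, 7.58% of the next, 6.68% of the next and 6.68% of the brightest. The called changes were smaller in brighter genes, with a median size of 0.52 in the dimmest group and 0.29 in the brightest (log2). Where a called gene had further probe sets, 551 of 613 of these moved in the same direction, 198 of them past the threshold, and 0 passed it in the opposite direction. Among genes described below, no further probe set passed for S100A10, ADAM10, IGFBP3, PDGFA, FSTL1, TGFB2, SEMA3C, CXCR4, FGFR2, ETS2, CCNE2, FZD5 or PRSS23, though for these genes all moved the same way. Of the 2 probe sets of CGN the further one moved the opposite way. FGFR1 had 4 probe sets, and only 2 of the further ones moved the same way, 0 of them past the threshold. For CDK6 and TPM1 only 1 of the 4 further probe sets passed.

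**Figure D1:**
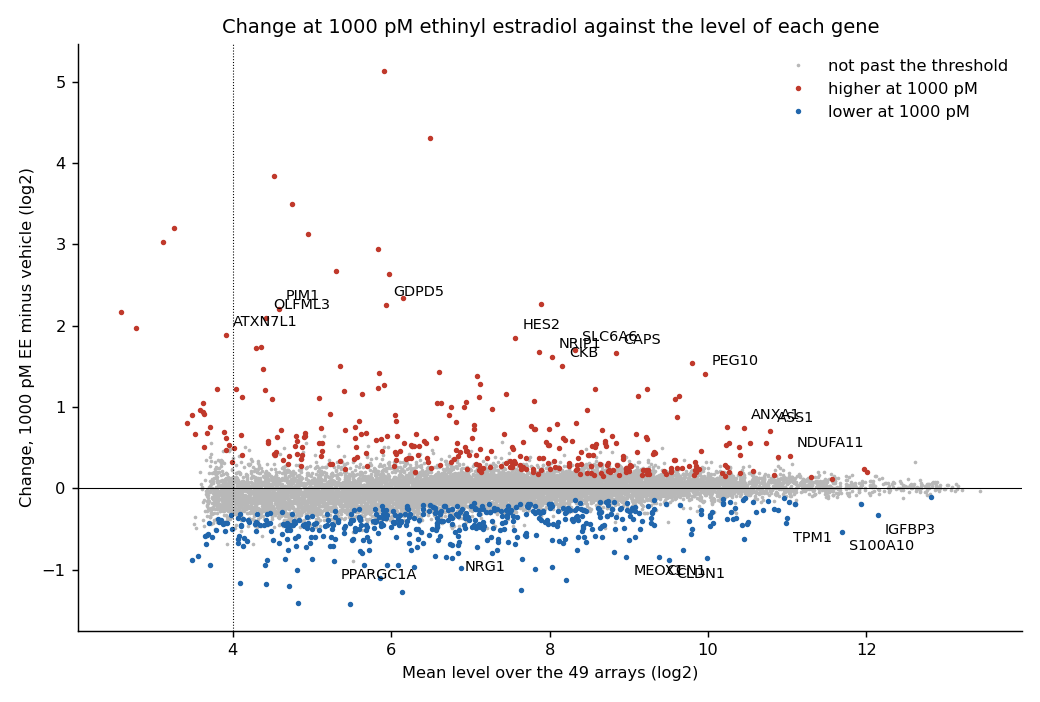
Change of each of the 11075 genes (log2, 1000 pM EE minus vehicle) against its mean level over the 49 arrays, with genes called higher in red, genes called lower in blue and a dotted line at the floor of 4. Called genes occur at all levels. With levels under the floor taken as measured, 16 rises exceed 4-fold (log2 change of 2), and no fall does.

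The promoters of these genes were searched for the estrogen response element, whose fixed letters are GGTCA, any 3 bases, and TGACC. Promoter windows of RefSeq (GRCh38.p14) hold the 250 bases before a start site and 50 after it, and were at hand for 254 of the 319 genes called higher and 384 of the 480 called lower. The whole element was found in 0 of 254 and 0 of 384, against 2 of 9193 tested genes with a window (0.0218%). With 1 mismatch allowed the shares were 0.394% of the higher, 0.521% of the lower and 0.653% of all tested genes. The half-site GGTCA, searched on both strands and so part of every whole element, was found in 41.3% of the higher, 39.6% of the lower and 41.7% of all. The AP-1 site TGANTCA was in 7.48%, 7.29% and 6.55%, and the SP site GGGCGG, on either strand, in 78.4%, 79.4% and 78.4%. Among genes changed at least 1.5-fold the AP-1 site was in 11.5% of 87 genes that rose and 3.95% of 76 that fell. No test was made of these shares, and a match is only a run of letters.

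Half-sites before the start occurred in 5 of the 10 genes with a window among the 12 largest rises and in 4 of 9 among the 12 largest falls. The following stretches show that such a half-site stood near the start of genes that moved either way; each belongs to a gene with 1 start in the table, and capitals mark every half-site as read on the gene's strand (GGTCA, or TGACC where it lies on the opposite strand). The first is from ALPG (at chr2:232406724-232406778, plus strand), an alkaline phosphatase gene among the largest rises.
ALPG: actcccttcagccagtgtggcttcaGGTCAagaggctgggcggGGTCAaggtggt
The next is from G0S2 (at chr1:209675306-209675360, plus strand), an inhibitor of triglyceride lipase that also rose.
G0S2: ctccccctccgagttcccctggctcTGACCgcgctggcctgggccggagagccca
The third is from CCN2 (at chr6:131951493-131951547, minus strand), connective tissue growth factor, which fell.
CCN2: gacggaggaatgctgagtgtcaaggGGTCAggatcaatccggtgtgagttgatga
The last is from SMR3B (at chr4:70382926-70382980, plus strand), a salivary peptide gene, which also fell.
SMR3B: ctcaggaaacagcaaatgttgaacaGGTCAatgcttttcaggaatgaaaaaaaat
ALPG held 2 half-sites, which began 95 and 77 bases before the start, and the half-site began 81 bases before it in G0S2, 150 in CCN2 and 180 in SMR3B. One promoter of a called gene held the element before its start with 1 mismatch, that of the junction protein cingulin (CGN, −0.27 ± 0.07 SE on the log2 scale, adjusted p = 0.00671), in the stretch chr1:151511175-151511247, plus strand, where capitals mark the match.
CGN: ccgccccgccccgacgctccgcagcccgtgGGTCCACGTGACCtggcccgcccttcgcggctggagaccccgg

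The 12 largest rises were PGR, OLFM1, DHRS3, ALPG, EGR3, ANPEP, NPPC, ANO1, MLPH, GREB1, SCGB2A1 and G0S2, and the 12 largest falls MFGE8, KRT80, COL26A1, CCN2, CGNL1, SMIM5, L1CAM, SMR3B, POU2AF3, NTNG1, TAGLN and JUN. Below these, the next 24 rises (ranks 13 to 36) lay between 2.35-fold and 4.78-fold, and the next 24 falls between 1.74-fold and 1.96-fold. These folds take levels under the floor as measured. Genes with a group under it, such as SLCO2A1, ANKRD1 and CNN1, have smaller bounds or no fold below. Among those rises 23 of 24 had no overlap between groups, and among those falls 18 of 24 had none. Of all genes tested 3.21% had none, but the ranked genes were chosen for large called changes, so separation is partly built in. With the spread taken from the 12 arrays alone 23 of the 24 rises and 18 of the 24 falls were still called. Without 1000 pM replicate 6 and vehicle replicate 5 all 24 rises and 23 of the 24 falls were still called; the exception, CCDC85A, was at −0.87 ± 0.22 SE with all arrays and −0.61 without them (adjusted p = 0.0829).

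**Figure D2:**
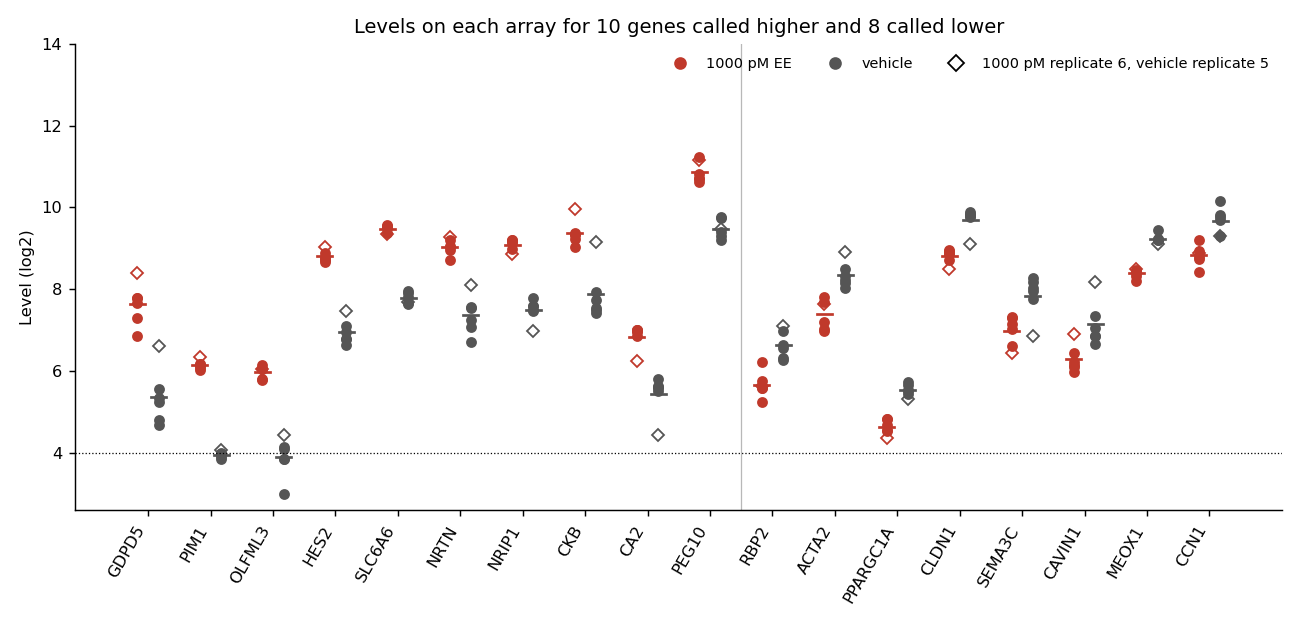
Log2 level on each array for 10 genes called higher (left of the grey line) and 8 called lower, with 1000 pM EE in red to the left of vehicle in grey, bars for group means, open diamonds for 1000 pM replicate 6 and vehicle replicate 5, and a dotted line at the floor of 4. CKB overlaps only through vehicle replicate 5 (9.16), and the groups of SEMA3C and CAVIN1 overlap as well.

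Genes that carry solutes across membranes rose more often than they fell. Of 198 solute carriers measured, 15 rose and 6 fell (7.58% and 3.03%, against 2.88% and 4.33% of all genes, the shares against which the percentages of later lists are also to be read), with a median change of −0.03 beside −0.01 for all genes; without the 2 arrays 11 rose and 6 fell. The taurine transporter SLC6A6 stood at 9.36 to 9.57 (median 9.51) at 1000 pM and 7.64 to 7.96 (median 7.74) in vehicle. Its arrays did not overlap, and the rise was 3.25-fold (log2 change 1.70 ± 0.07 SE, adjusted p = 1.71e-25). SLC30A1, which exports zinc from the cell, stood at 8.66 to 9.27 (median 9.15) at 1000 pM and 7.35 to 8.67 (median 8.57) in vehicle, groups that touched at their edges (1.64-fold, adjusted p = 0.000173). SLC47A2, an exporter of organic cations, rose 1.52-fold. SLC7A11, the cystine and glutamate exchanger, was at 0.51 ± 0.13 SE (adjusted p = 0.00491) with all arrays and 0.32 (adjusted p = 0.0473) without 1000 pM replicate 6 and vehicle replicate 5, vehicle replicate 5 being its lowest array at 9.21. SLC48A1, a heme transporter, fell 1.55-fold. The prostaglandin transporter SLCO2A1 stood at 5.18 to 5.76 (median 5.32) at 1000 pM, while in vehicle all 6 arrays lay at or under the floor (3.41 to 3.99 (median 3.57)), so that it was at least 2.60-fold higher (adjusted p = 3.4e-16).

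Ion channels and pumps gave a few clear rises. Of 13 potassium channel genes measured 3 rose and 1 fell (23.1% and 7.69%), with 2 called in all when 1000 pM replicate 5 was left out. The inward rectifier KCNJ5 stood at 7.78 to 8.14 (median 7.83) at 1000 pM and 6.50 to 7.27 (median 6.70) in vehicle, with no overlap (2.17-fold, log2 change 1.12 ± 0.09 SE), and its 3 further probe sets passed in the same direction. Its relative KCNJ1, the potassium channel of the kidney tubule, was at least 1.75-fold higher, since all vehicle arrays lay under the floor. The carbonic anhydrases, which interconvert carbon dioxide and bicarbonate, contributed CA12, at 7.07 to 7.40 (median 7.26) at 1000 pM and 5.98 to 6.54 (median 6.11) in vehicle (2.06-fold, adjusted p = 9.87e-09, with all 4 further probe sets called the same way), and CA2, at 6.24 to 7.01 (median 6.97) at 1000 pM and 4.43 to 5.79 (median 5.59) in vehicle (2.67-fold, adjusted p = 5.14e-10). For CA2 the lowest array of each group was 1000 pM replicate 6 and vehicle replicate 5, and without them the change was 1.34. CLIC3, an intracellular chloride channel protein, rose 1.61-fold. ABCC3, which exports organic anions and glucuronides, fell 1.69-fold (log2 change −0.76 ± 0.11 SE), though none of its 3 further probe sets passed (0 of 3), all in the same direction.

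Secreted ligands moved in both directions. Of 22 growth factor ligands measured 3 rose and 3 fell (13.6% and 13.6%). TGFA, a ligand of the EGF receptor, stood at 10.10 to 10.40 (median 10.21) at 1000 pM and 8.71 to 9.41 (median 9.22) in vehicle, a rise of 2.19-fold (log2 change 1.13 ± 0.09 SE, adjusted p = 6.27e-14). NRG1, a ligand of the related receptors ERBB3 and ERBB4, went the other way, at 6.17 to 6.37 (median 6.33) at 1000 pM and 6.79 to 7.27 (median 7.15) in vehicle (−0.80 ± 0.08 SE, adjusted p = 3.64e-11). The groups were apart for both genes. PDGFA, the A chain of platelet-derived growth factor, stood at 4.27 to 4.54 (median 4.49) at 1000 pM and 4.88 to 5.76 (median 5.32) in vehicle and fell 1.83-fold. NRTN, the neurotrophic ligand neurturin, stood at 8.72 to 9.28 (median 9.05) at 1000 pM and 6.72 to 8.10 (median 7.39) in vehicle and rose 3.18-fold (adjusted p = 9.89e-11). Among 32 genes of the BMP, activin and TGF-beta pathway 1 rose and 4 fell (3.12% and 12.5%), with 8 called without vehicle replicate 5; among the falls were FSTL1, a secreted follistatin-like protein (1.54-fold), the ligand TGFB2 (1.51-fold) and SMAD6, an inhibitor of BMP signalling (1.42-fold).

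The insulin-like growth factor axis had 2 higher and 4 lower of 15 measured genes (13.3% and 26.7%). IGFBP5, a binding protein that holds the growth factors outside the cell, stood at 8.15 to 8.79 (median 8.31) at 1000 pM and 8.85 to 9.52 (median 9.05) in vehicle, with no overlap (log2 change −0.79 ± 0.10 SE, adjusted p = 6.59e-08). IGFBP3, the main binding protein of serum and among the most abundant transcripts here, stood at 11.85 to 12.07 (median 11.87) at 1000 pM and 12.09 to 12.34 (median 12.27) in vehicle, a small fall that was also free of overlap (−0.34 ± 0.04 SE, adjusted p = 1.04e-07). Without the 2 arrays 2 rose and 5 fell.

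Receptors were mixed. Of 49 G protein-coupled receptors measured 4 rose and 4 fell (8.16% and 8.16%). PTGER3, a prostaglandin E2 receptor, stood at 5.99 to 6.76 (median 6.60) at 1000 pM and 4.92 to 5.69 (median 5.35) in vehicle (2.24-fold, adjusted p = 4.44e-08), with both further probe sets called higher too. CXCR4, the receptor of the chemokine CXCL12, stood at 4.17 to 4.67 (median 4.46) at 1000 pM and 4.67 to 5.66 (median 5.09) in vehicle, near the floor (1.63-fold lower, adjusted p = 0.000215). Of 23 chemokine and interleukin genes 3 receptors rose, IL17RB (1.77-fold), IL4R (1.59-fold) and IL6R (at least 1.28-fold, its vehicle arrays all under the floor), and 3 genes fell, including IL17RD, a brake on FGF signalling (1.54-fold). Of 19 receptor tyrosine kinases FGFR1 rose 1.30-fold and FGFR2 fell 1.61-fold; 4 of the 19 were called without 1000 pM replicate 6 or without vehicle replicate 6, and 5 without vehicle replicate 5. For FGFR2 the groups overlapped (5.76 to 6.55 (median 6.29) at 1000 pM and 5.87 to 7.39 (median 7.04) in vehicle), and a different FGFR1 probe set, that of largest variance, gave −0.14 without passing. Of 27 Wnt pathway genes 3 rose and 0 fell (11.1% and 0%), the transcription factor LEF1 (1.43-fold), the receptor FZD5 (1.33-fold) and the R-spondin receptor LGR4 (1.32-fold); 5 were called without 1000 pM replicate 6 and 7 without vehicle replicate 6.

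Genes of the actin cytoskeleton and of the mechanically controlled factors YAP and SRF fell more often than they rose. YAP is a coactivator held out of the nucleus by Hippo kinases, and SRF drives actin and muscle genes when actin polymerises. Of 39 measured genes known as their targets or as contractile proteins 14 fell (35.9%, against 4.33% of all genes) and 1 rose (2.56%, against 2.88%); without the 2 arrays the counts were again 14 and 1, and with each of the 12 arrays left out in turn 11 to 16 were called. The 1 that rose, DLC1, changed by 0.36 ± 0.11 SE (adjusted p = 0.0336), and its call ended without 1000 pM replicate 1, 2, 3 or 5 or vehicle replicate 1, 5 or 6 (adjusted p from 0.0511 to 0.122). The median change of the 39 was −0.19, beside −0.01 for all genes. The members were picked by symbol with earlier results of these data known, so part of the difference from all genes may be built in. ACTA2, smooth muscle actin, stood at 6.98 to 7.81 (median 7.42) at 1000 pM and 8.03 to 8.91 (median 8.28) in vehicle, with no overlap (−0.97 ± 0.16 SE, adjusted p = 1.92e-05). CCN1, a matricellular protein and relative of CCN2, stood at 8.43 to 9.21 (median 8.83) at 1000 pM and 9.29 to 10.17 (median 9.72) in vehicle (−0.84 ± 0.15 SE, adjusted p = 8.61e-05). TPM1, a tropomyosin that lines actin filaments and far more abundant, stood at 10.65 to 10.81 (median 10.75) at 1000 pM and 11.04 to 11.31 (median 11.17) in vehicle (−0.43 ± 0.05 SE, adjusted p = 5.15e-09). The calponin gene CNN1 passed the threshold at levels near or under the floor in both groups, so that no fold is given (2.83 to 3.43 (median 2.89) at 1000 pM and 3.57 to 4.32 (median 3.83) in vehicle). ANKRD1, a YAP target, was under the floor on all 1000 pM arrays (2.34 to 3.87 (median 3.01), against 3.14 to 4.70 (median 4.04) in vehicle), at least 1.01-fold lower (adjusted p = 0.0133); its call ended without 1000 pM replicate 6 (adjusted p = 0.0511) or vehicle replicate 4 (adjusted p = 0.0532).

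**Figure D3:**
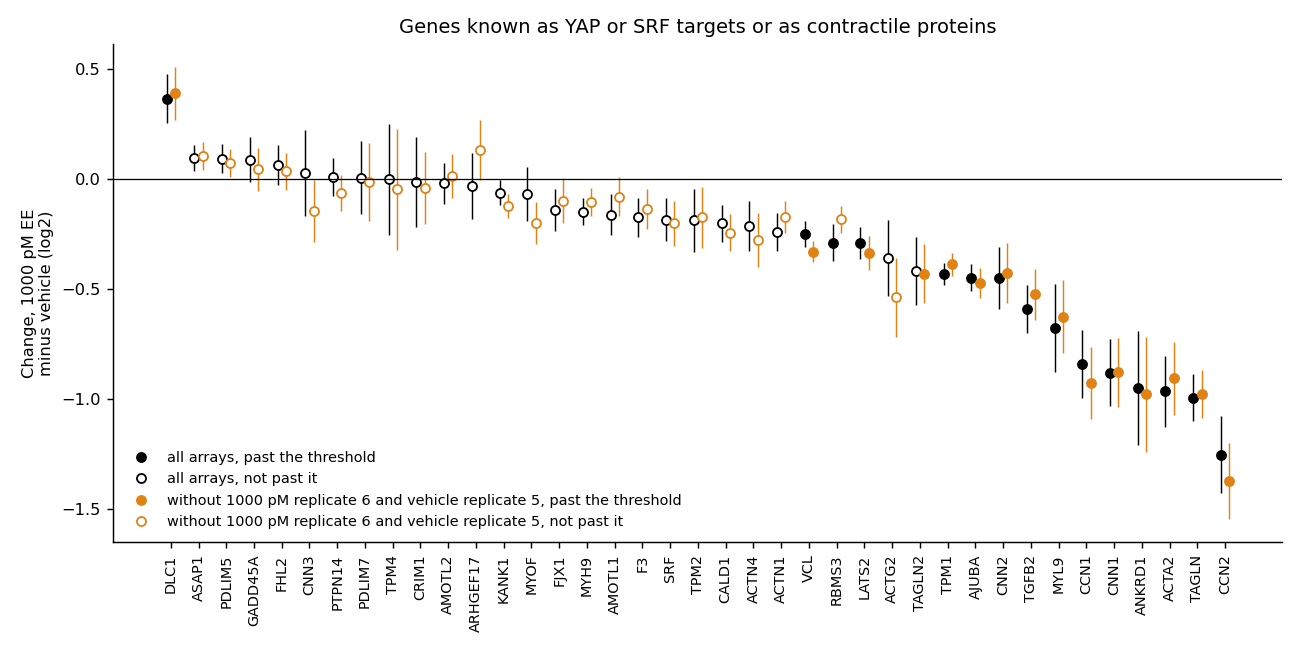
Change (log2, 1000 pM EE minus vehicle, bars for SE) of the 39 measured genes known as YAP or SRF targets or as contractile proteins, with all arrays in black and without 1000 pM replicate 6 and vehicle replicate 5 in orange, filled where past the threshold. With all arrays 14 genes lie below 0 and past the threshold and 1 above; DLC1 is the one that rose.

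Single genes of small GTPase signalling and of caveolae moved in both directions. RHOU stood at 9.76 to 10.06 (median 9.92) at 1000 pM and 8.57 to 8.88 (median 8.81) in vehicle (2.20-fold, adjusted p = 2.73e-17). RHOBTB1 stood at 7.43 to 7.57 (median 7.56) at 1000 pM and 5.98 to 6.20 (median 6.09) in vehicle, with no overlap (2.69-fold, 1.43 ± 0.06 SE). DIRAS3, an imprinted RAS-like growth inhibitor, stood at 4.43 to 5.78 (median 5.45) at 1000 pM and 3.50 to 4.49 (median 4.08) in vehicle, groups that overlapped slightly (2.31-fold, adjusted p = 1.73e-06). RAPGEF3, the cAMP-activated exchange factor EPAC1, fell 1.80-fold (adjusted p = 0.0139), but the call ended without vehicle replicate 5, its highest array at 8.62 (adjusted p = 0.0860). CAVIN1, which coats caveolae, stood at 5.97 to 6.91 (median 6.17) at 1000 pM and 6.67 to 8.17 (median 6.96) in vehicle; vehicle replicate 5 and 1000 pM replicate 6 were its highest arrays, and the change was −0.86 ± 0.17 SE with them and −0.78 without.

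Axon guidance genes, which also steer cell adhesion and vessel growth, fell more often than they rose. Of 37 semaphorins, plexins, netrins, slits, ephrins and their receptors 12 fell and 2 rose (32.4% and 5.41%), with a median change of −0.19; without the 2 arrays 10 fell and 2 rose, and with each array left out in turn 11 to 16 were called. SEMA3C, a secreted semaphorin, stood at 6.43 to 7.31 (median 7.09) at 1000 pM and 6.85 to 8.28 (median 8.00) in vehicle. Its groups overlapped through vehicle replicate 5, the lowest vehicle array, and the change was −0.87 ± 0.18 SE with all arrays and −0.96 without the 2. SEMA6A, a membrane semaphorin, fell 1.60-fold and NTN4, a netrin of basement membranes, 1.69-fold.

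Genes of the extracellular matrix moved in both directions. Of 19 collagen genes 3 rose and 4 fell (15.8% and 21.1%). The chains of type I collagen parted: COL1A2 stood at 8.23 to 8.77 (median 8.55) at 1000 pM and 7.12 to 7.80 (median 7.43) in vehicle (2.10-fold higher, adjusted p = 1.12e-07), and COL1A1 at 7.87 to 8.22 (median 8.18) at 1000 pM and 8.31 to 9.31 (median 8.83) in vehicle (1.58-fold lower, adjusted p = 0.00226). Neither pair of groups overlapped, and each gene's second probe set passed in the same direction. COL9A3, a chain of cartilage collagen IX, stood at 6.17 to 7.09 (median 6.83) at 1000 pM and 5.31 to 5.74 (median 5.50) in vehicle (2.41-fold). Of 37 matrix glycoproteins 5 rose and 7 fell (13.5% and 18.9%). THBS1, the adhesive and antiangiogenic glycoprotein thrombospondin 1, stood at 10.54 to 10.79 (median 10.70) at 1000 pM and 8.55 to 9.52 (median 9.26) in vehicle, and its 4 probe sets were all called higher (2.90-fold, 1.54 ± 0.11 SE). VCAN, the proteoglycan versican, stood at 7.41 to 7.71 (median 7.52) at 1000 pM and 6.38 to 7.08 (median 6.75) in vehicle (1.72-fold), with 5 probe sets called the same way, and the laminin chain LAMB3 rose 1.99-fold. CILP, a cartilage matrix protein, stood at 7.88 to 8.02 (median 7.94) at 1000 pM and 5.99 to 6.77 (median 6.64) in vehicle, an isolated rise of 2.61-fold (adjusted p = 1.73e-18). P3H2, which hydroxylates prolines in collagen IV, fell 1.93-fold (−0.95 ± 0.12 SE).

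Among proteases and their inhibitors ADAMTS5, an aggrecanase, fell 1.63-fold and the abundant sheddase ADAM10 1.29-fold (10.61 to 10.84 (median 10.76) at 1000 pM and 10.99 to 11.18 (median 11.11) in vehicle). CST6, the cathepsin inhibitor cystatin M, fell 1.74-fold, and PRSS23, a secreted serine protease, 1.32-fold. Of 21 metalloproteinase, ADAM and TIMP genes 1 rose and 4 fell (4.76% and 19.0%). Of 34 serine protease, cathepsin and serpin genes 0 rose and 5 fell (0% and 14.7%), or 2 without both arrays that stood apart; single arrays moved this count too, to 2 called without 1000 pM replicate 5, 3 without vehicle replicate 5 and 8 without vehicle replicate 6.

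Junction and adhesion genes gave few calls. Of 24 claudins and tight junction proteins 4 fell (16.7%) and 0 rose. CLDN1, a sealing claudin, stood at 8.50 to 8.96 (median 8.88) at 1000 pM and 9.12 to 9.89 (median 9.80) in vehicle (−0.89 ± 0.08 SE, adjusted p = 6.72e-12), and its lowest vehicle array was replicate 5. PARD3B, a polarity protein, fell 1.33-fold and CGN 1.21-fold; the CGN probe set of largest variance gave 0.14 without passing. The integrin subunit ITGA6, which pairs in laminin receptors, stood at 9.22 to 9.57 (median 9.43) at 1000 pM and 7.97 to 8.39 (median 8.18) in vehicle, a rise of 2.32-fold (adjusted p = 1.5e-13), while ITGB6 fell 1.62-fold. CTNND2, a catenin of the delta type, stood at 5.09 to 5.66 (median 5.29) at 1000 pM and 2.89 to 4.24 (median 3.60) in vehicle (2.56-fold above the floor, since the vehicle mean lay under it). KRT7, a keratin of simple epithelium, fell 1.51-fold. ESRP2, a splicing regulator of epithelial cells, was the 1 of 11 epithelial markers that was called, and fell 1.35-fold.

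Within families of transcriptional regulators, relatives moved in opposite directions. HES2, a basic helix-loop-helix repressor, stood at 8.66 to 9.04 (median 8.75) at 1000 pM and 6.63 to 7.46 (median 6.87) in vehicle (3.61-fold higher, adjusted p = 2.91e-19), while its relative HES1, a classical target of Notch, stood at 8.49 to 8.88 (median 8.65) at 1000 pM and 9.12 to 9.36 (median 9.26) in vehicle (1.51-fold lower, adjusted p = 7.77e-10). Among 18 Notch genes 5 fell (27.8%) and HES2 alone rose (5.56%). JAG1, a Notch ligand, stood at 9.02 to 9.28 (median 9.18) at 1000 pM and 9.82 to 10.06 (median 9.93) in vehicle, with no overlap and all 4 probe sets lower (−0.75 ± 0.05 SE, adjusted p = 1.15e-16). Of 43 basic helix-loop-helix and ID factors 3 rose and 7 fell (6.98% and 16.3%), with NPAS3, a brain-enriched factor, up 2.06-fold and ID4, an inhibitor of such factors, up 1.49-fold.

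Members of the AP-1 family moved in opposite directions. FOSL2 stood at 4.85 to 5.49 (median 5.20) at 1000 pM and 3.69 to 4.76 (median 4.07) in vehicle and rose 2.15-fold (adjusted p = 2.58e-06), while JUN was among the largest falls and JUNB stood at 4.27 to 4.74 (median 4.38) at 1000 pM and 4.73 to 5.17 (median 4.94) in vehicle (1.42-fold lower, adjusted p = 0.000632). CEBPD, a leucine zipper factor of acute responses, rose 1.54-fold and CEBPB, needed for decidualization, rose by a log2 change of 0.32 ± 0.07 SE. Of 33 leucine zipper factors 3 rose and 3 fell (9.09% and 9.09%). Among ETS factors the epithelial EHF rose 1.65-fold, while ETV5, a target of FGF signalling, fell 1.51-fold and ETS2 1.33-fold (1 up and 3 down of 17, or 5.88% and 17.6%). SOX17, a factor of the Müllerian tract, stood at 8.23 to 8.50 (median 8.40) at 1000 pM and 7.48 to 7.87 (median 7.65) in vehicle (1.65-fold higher, adjusted p = 2.31e-11). The forkhead factor FOXD1 rose 2.30-fold, and FOXA1, a pioneer factor for estrogen receptor alpha, fell 1.37-fold (5.36 to 5.80 (median 5.71) at 1000 pM and 5.76 to 6.27 (median 6.22) in vehicle, overlapping groups). The homeobox factor MEOX1 stood at 8.19 to 8.50 (median 8.43) at 1000 pM and 9.11 to 9.44 (median 9.21) in vehicle (−0.84 ± 0.07 SE, adjusted p = 4.32e-14).

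Among 52 coactivators, corepressors and Mediator subunits 4 rose and 1 fell (7.69% and 1.92%, or 9.62% called against 7.21% of all genes), and without the 2 arrays 3 rose and 2 fell. NRIP1, the corepressor RIP140 and a known estrogen target, stood at 8.86 to 9.20 (median 9.16) at 1000 pM and 6.97 to 7.79 (median 7.54) in vehicle (3.05-fold, adjusted p = 4.51e-17). NCOA4, a coactivator that also carries ferritin to lysosomes, stood at 10.90 to 11.22 (median 11.08) at 1000 pM and 9.83 to 10.70 (median 10.65) in vehicle (1.47-fold), with vehicle replicate 5 the lowest array. CITED4, with a vehicle mean under the floor, rose to 1.26-fold above the floor and its relative CITED2 fell 1.41-fold, both with overlapping groups. PPARGC1A, a coactivator of mitochondrial biogenesis that this list did not hold, stood at 4.36 to 4.83 (median 4.62) at 1000 pM and 5.31 to 5.72 (median 5.52) in vehicle (−0.90 ± 0.11 SE, adjusted p = 1.88e-08). AFF3, a member of the AFF family of elongation factors, rose 2.35-fold (adjusted p = 3.19e-05); its lowest array was vehicle replicate 5 at 3.47, and the change without the 2 arrays was 0.99 (adjusted p = 2.36e-06).

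Kinases and genes of growth control moved in both directions. PIM1, a serine and threonine kinase induced by cytokines, stood at 6.03 to 6.33 (median 6.14) at 1000 pM and 3.84 to 4.05 (median 3.96) in vehicle, the vehicle mean just under the floor (4.43-fold above the floor, adjusted p = 8.88e-22). CDK6, which pairs with D cyclins in G1, fell 1.59-fold (7.56 to 7.84 (median 7.66) at 1000 pM and 8.27 to 8.49 (median 8.31) in vehicle, adjusted p = 2.75e-14), while the D cyclin CCND2 rose 1.70-fold (8.06 to 8.59 (median 8.16) at 1000 pM and 7.09 to 7.87 (median 7.52) in vehicle, adjusted p = 0.000144) and the S-phase cyclin CCNE2 1.23-fold. Among 40 cyclins and cyclin-dependent kinases 2 rose and 3 fell (5.00% and 7.50%). PLK2, a kinase of the Polo family, stood at 9.29 to 9.39 (median 9.33) at 1000 pM and 9.89 to 10.34 (median 10.24) in vehicle (−0.86 ± 0.05 SE, adjusted p = 1.03e-17). DEPTOR, an inhibitor of mTOR, stood at 10.09 to 10.32 (median 10.24) at 1000 pM and 8.80 to 9.39 (median 9.16) in vehicle (2.14-fold higher, adjusted p = 7.18e-18), and PRR5L, which binds the second mTOR complex, rose 2.77-fold. Among cell death genes PMAIP1, a BH3-only protein, rose 1.43-fold, BCL2, the survival protein, fell 1.26-fold, and BMF, another BH3-only protein, was at least 1.33-fold lower, under the floor on all 1000 pM arrays. The bound for BMF includes vehicle replicate 5, its highest array at 5.34. Its log2 change was −0.63 with all arrays and −0.44 without the 2.

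Enzymes of metabolism gave scattered calls. GDPD5, a glycerophosphodiesterase, had the largest rise after the first 12, at 6.86 to 8.39 (median 7.72) at 1000 pM and 4.69 to 6.60 (median 5.28) in vehicle (4.78-fold, adjusted p = 1.28e-10). CKB, brain creatine kinase and a classical estrogen-induced protein of the uterus, stood at 9.03 to 9.95 (median 9.33) at 1000 pM and 7.41 to 9.16 (median 7.64) in vehicle. The groups overlapped through vehicle replicate 5, and the change was 1.5 ± 0.19 SE with all arrays and 1.64 without the 2. ASS1, which makes argininosuccinate in arginine synthesis, stood at 11.23 to 11.43 (median 11.30) at 1000 pM and 10.38 to 10.85 (median 10.55) in vehicle (1.63-fold, adjusted p = 8.9e-13). SAT1, which acetylates polyamines for export, fell 1.32-fold. Of 69 phospholipases and related enzymes 6 rose and 2 fell (8.70% and 2.90%), with PLCB1, a phospholipase C, up 1.53-fold and PLA2G4A, which releases arachidonic acid, up 1.40-fold. For PLA2G4A the lowest array was vehicle replicate 5 (6.94), and the log2 change was 0.49 with all arrays and 0.37 without the 2. In the 12 arrays alone PLA2G4A did not pass (limma adjusted p = 0.275). RBP2, which binds retinol inside the cell, stood at 5.24 to 6.22 (median 5.60) at 1000 pM and 6.27 to 7.09 (median 6.60) in vehicle (−0.97 ± 0.16 SE), and CYP26B1, which degrades retinoic acid, fell 1.36-fold.

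Glycosylation enzymes split evenly, 5 higher and 5 lower of 54 (9.26% and 9.26%). GALNT4, which starts mucin-type glycans, stood at 8.11 to 8.51 (median 8.27) at 1000 pM and 6.97 to 7.56 (median 7.05) in vehicle (2.23-fold, adjusted p = 4.51e-17). ST8SIA4, a polysialyltransferase, was higher (adjusted p = 6.33e-06), at 3.63 to 4.94 (median 4.50) and with vehicle arrays all under the floor (2.98 to 3.59 (median 3.23)). ST3GAL5, which makes the ganglioside GM3, fell 1.56-fold and GCNT3, a branching enzyme of mucins, 1.53-fold.

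Metallothioneins, which bind zinc and copper, were lower by small amounts: 5 of 6 measured genes passed and 0 rose, with a median change of −0.27. The calls of MT1F (7.56 to 7.95 (median 7.79) at 1000 pM and 7.99 to 8.31 (median 8.15) in vehicle, 1.31-fold) and MT2A (8.96 to 9.17 (median 9.08) at 1000 pM and 9.26 to 9.81 (median 9.40) in vehicle, 1.29-fold) were the 2 that passed without 1000 pM replicate 6 and vehicle replicate 5. Single arrays also decided the count, which was 3 without 1000 pM replicate 1, 2 or 6, and 2 without 1000 pM replicate 3 or 4 or vehicle replicate 2 or 5. These genes are near-identical copies, so probes may bind more than one of them. Of 19 S100 proteins and annexins 1 rose and 4 fell (5.26% and 21.1%). ANXA1, a phospholipid-binding mediator of glucocorticoid action, rose 1.68-fold (10.76 to 11.19 (median 10.84) at 1000 pM and 9.09 to 10.57 (median 10.35) in vehicle; the lowest array was vehicle replicate 5, and the change without the 2 arrays was 0.56). S100A10, the partner of annexin A2, stood at 11.25 to 11.42 (median 11.36) at 1000 pM and 11.76 to 12.02 (median 11.87) in vehicle and fell 1.45-fold (adjusted p = 9.56e-14). Its further probe set moved the same way without passing.

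**Figure D4:**
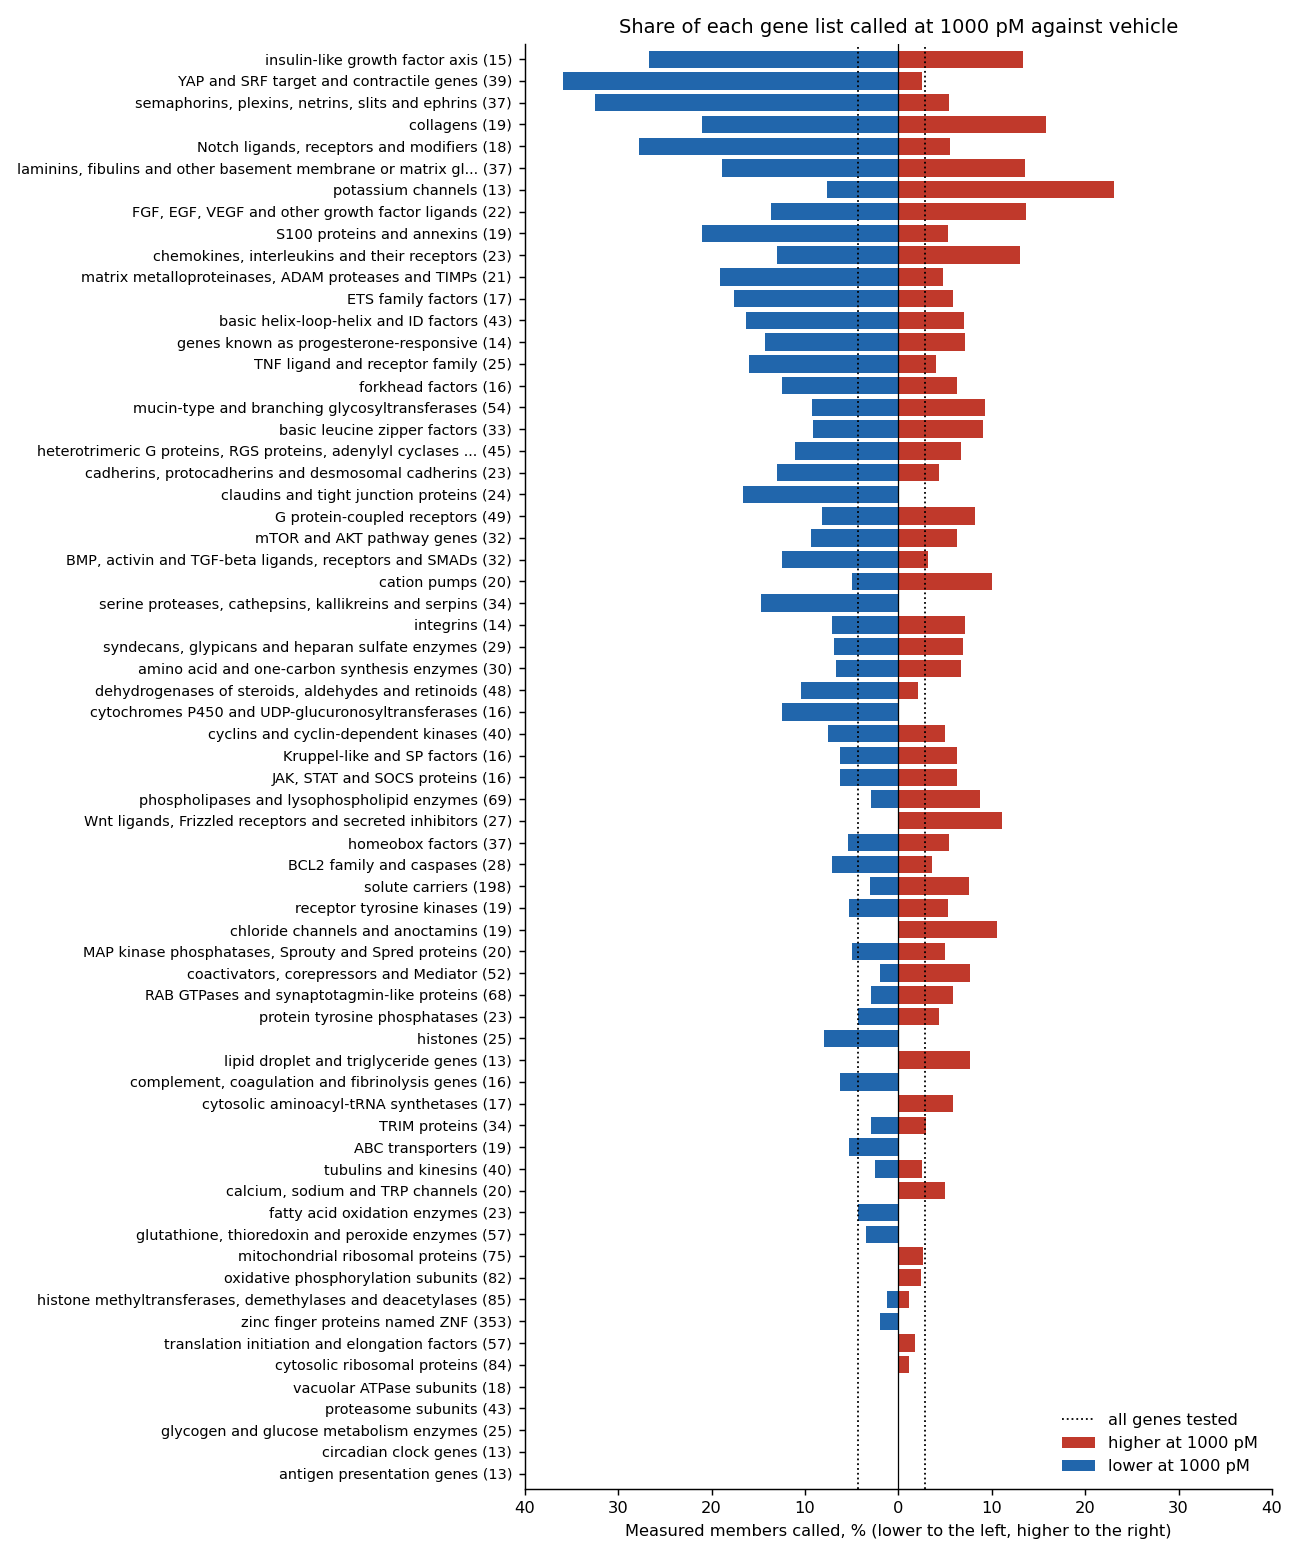
Share of measured members (number in brackets) called higher (red, to the right) or lower (blue, to the left) at 1000 pM against vehicle in 66 gene lists with at least 10 measured members, with dotted lines at 2.88% and 4.33% for all genes tested. The genes of YAP, SRF and contraction and those of axon guidance have the longest bars toward lower levels, and the lists at the foot have no bar. The lists were chosen with earlier results of these data known.

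Some classes had few calls or none. Of 84 cytosolic ribosomal protein genes 1 rose and 0 fell (1.19% called, against 7.21% of all genes), of 75 mitochondrial ones 2 rose, of 82 oxidative phosphorylation genes 2 rose and of 57 translation factors 1 rose, with 0 falls in each. None of 43 proteasome subunits, 18 subunits of the vacuolar ATPase, 25 enzymes of glycogen and glucose metabolism, 13 clock genes or 13 antigen presentation genes was called (0 of each). At the 7.21% called among all genes a list of 13 would hold about 1 call, so 0 of 13 is near that share. Lists of 18 or 25 would hold few more, so 0 calls there is not far from it either. Of 353 zinc finger genes named ZNF 7 fell and 0 rose (1.98%), a count that was 3 without 1000 pM replicate 1, 4 without 1000 pM replicate 5 or vehicle replicate 2 or 6, and 2 without 1000 pM replicate 2 or 4 or vehicle replicate 1, 3 or 4. With each of the 12 arrays left out in turn the called cytosolic ribosomal proteins numbered 1 to 3, the mitochondrial ones 1 to 3, the translation factors 0 to 3, and the glycogen and glucose enzymes and antigen presentation genes 0 to 1. A log2 change of 0.32 was recovered for 52% of the genes in simulated data, which were drawn from all genes tested. Shifts of that size or smaller could thus go uncalled, and how often in these classes was not measured.

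Among abundant genes the called changes were small. The brightest called rises of at least 0.32 (log2) included NDUFA11, a subunit of respiratory complex I (1.31-fold), CDV3 (1.31-fold), VDAC1, the mitochondrial porin (1.47-fold), and RDX, radixin (1.33-fold). Vehicle replicate 5 was the lowest array for VDAC1 and RDX, and without the 2 arrays the log2 changes were 0.41 and 0.29. CDV3 stood at 11.00 to 11.27 (median 11.17) at 1000 pM and 10.62 to 10.90 (median 10.77) in vehicle, with no overlap. Its counterparts among falls, besides IGFBP3, S100A10, ADAM10, TPM1 and FSTL1 above, were EZR, ezrin, which ties actin to the membrane (1.37-fold), and AKR1C1, which inactivates progesterone (1.36-fold). AKR1C1 and its near-identical relatives cannot be told apart with certainty by such probes. RDX rose and EZR fell although they are close relatives, both with overlapping groups (10.32 to 10.74 (median 10.61) at 1000 pM and 9.34 to 10.41 (median 10.32) in vehicle for RDX, 9.93 to 10.39 (median 10.10) at 1000 pM and 10.29 to 10.87 (median 10.58) in vehicle for EZR).

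Other rises of rank 13 to 36 fell in no list. CAPS, the calcium-binding protein calcyphosine, stood at 9.80 to 10.14 (median 9.95) at 1000 pM and 8.01 to 8.59 (median 8.25) in vehicle (3.17-fold, adjusted p = 2.42e-21), with all 3 probe sets called. PEG10, an imprinted gene derived from a retrotransposon and needed in placenta, stood at 10.62 to 11.24 (median 10.77) at 1000 pM and 9.19 to 9.76 (median 9.43) in vehicle (2.64-fold). OLFML3, a secreted olfactomedin-like protein, stood at 5.79 to 6.14 (median 6.05) at 1000 pM and 3.00 to 4.43 (median 3.96) in vehicle (3.96-fold above the floor, its vehicle mean being under it). DIS3L2, an exonuclease that degrades uridylated RNA, rose 2.83-fold, and PLXDC2, a plexin-domain membrane protein, 2.43-fold with all 4 probe sets called. ATXN7L1 was at least 2.24-fold higher, MSMB, a secreted protein of seminal plasma, at least 1.13-fold and RBM24, an RNA-binding protein, at least 1.13-fold, each from vehicle arrays under the floor. Among the falls of that rank TNFAIP2 (1.93-fold), SIGLEC15, a sialic acid-binding lectin (1.92-fold), LYPD6B (1.78-fold), MYADM (1.74-fold) and ALPK2, a kinase (1000 pM mean under the floor, 1.52-fold as measured against the floor), remained, with BLACAT1, a long noncoding RNA, at least 1.51-fold lower and MAMDC2 near or under the floor in both groups.

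Leaving out the 2 arrays with the high 3′ minus 5′ differences moved calls both ways. Without them 690 genes passed (6.23%), 269 higher and 421 lower, and 586 of these were among the 799. The threshold was lost by 213 genes, 76 higher and 137 lower, and reached by 104, 26 higher and 78 lower, while 0 of the genes called either way changed sign. Genes gained included ITGB3, an integrin subunit of the receptive endometrium, at −0.54 ± 0.18 SE (adjusted p = 0.0555) with all arrays and −0.75 (adjusted p = 3.84e-06) without them. Its 1000 pM arrays lay at 4.48 to 5.24 (median 5.06) and its vehicle arrays at 4.01 to 6.07 (median 5.74), and vehicle replicate 5 was the lowest of all. ANXA3, an annexin, likewise stood at −0.31 ± 0.15 SE with all arrays and −0.52 (adjusted p = 0.000469) without them, as did TSPAN12, a tetraspanin (−0.49 ± 0.17 SE and −0.68). LFNG, a glycosyltransferase that modifies Notch, reached the threshold as a rise (0.62 without them, adjusted p = 0.0158, 0.49 ± 0.16 SE with all). Genes lost included S1PR3, a sphingosine phosphate receptor (0.55 ± 0.14 SE with all arrays, adjusted p = 0.00885, and 0.35 without them, adjusted p = 0.0590). In the separate fit of the 12 arrays alone 308 genes passed, and in that of the 10 arrays without these 2, 735. Of 162 called genes named in these results, 127 still passed in the 12 arrays alone and 35 did not. Those that did not pass there included AFF3 (limma adjusted p = 0.0647), SLC30A1 (0.0844), FGFR2 (0.195), LGR4 (0.212) and RAPGEF3 (0.237).

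**Figure D5:**
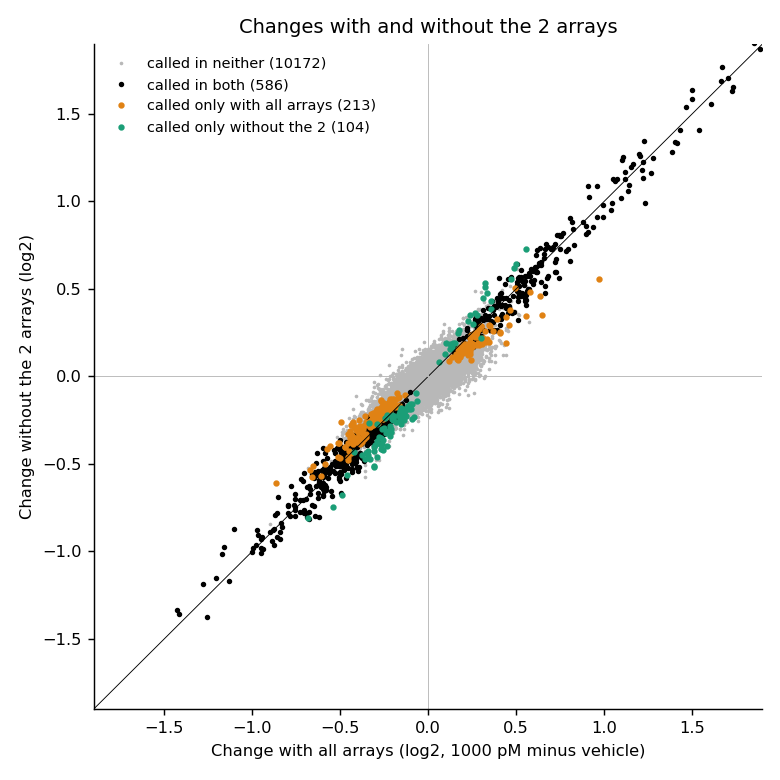
Change of each gene (log2, 1000 pM EE minus vehicle) without 1000 pM replicate 6 and vehicle replicate 5, on the vertical axis, against the change with all arrays, with genes called in both fits in black (586), only with all arrays in orange (213), only without the 2 in green (104) and in neither in grey (10172). Coloured points keep to one side of 0 on both axes; 18 genes with changes beyond 1.9 lie outside the axes.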

How the data were processed

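The deposited log2 values were made by the authors with GCRMA in Partek, per the submitters' processing notes, which give no version here; RNA was labelled from its 3′ end, per the labels' protocols. They cover 54715 probe sets on 49 Affymetrix arrays, of which 40920 carry 1 gene symbol, 864 several and 12931 none, and only those with 1 were used.

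Probe sets above a log2 level of 4 on at least 6 arrays entered, and each gene was represented by its entering probe set of highest mean, which gave 11075 genes. limma 3.58.1 (R 4.3.3) was fitted to all 49 arrays in 8 groups with an intensity trend, and a gene was called at a Benjamini-Hochberg adjusted p under 0.05. Where every array of a group lay at or under the floor, the change is given as a bound against the floor. Levels are given as the lowest, the highest and the median of 6 arrays. Tested on simulated data, the fit recovered 52% of log2 changes of 0.32, 83.6% of 1.5-fold and 98.8% of 2-fold, with 5.43% of calls false. The simulated noise was normal, independent between genes and of equal spread on all arrays. In the data vehicle replicate 5 had a spread about its group mean of 0.561 (SD, log2), against 0.153 to 0.206 on the other vehicle arrays. The simulation therefore does not measure the share of false calls here. The number of arrays limits the precision.

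The comparison, its gene lists (73, and 6 of markers) and the naming rule were chosen with earlier results of these data known. The rule took the rises and falls ranked 13 to 36, the 8 brightest called genes changed by at least 0.32 (log2) each way, up to 4 called members of each list, and 5 genes each way gained or lost without the 2 arrays of high 3′ minus 5′ difference. The text departs from it: of the 249 called genes from its first 3 parts it gives 160, and list members whose call ended when a single array was left out were mostly not given (53 of 56). That choice, and a limit of lists made by symbol pattern to protein-coding genes, were made after values and names were seen. Not all lists are described, and 1 is not reported here.

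Replicate numbers showed no clear pairing of the arrays, so the block by number was an alternative only. Further alternatives were the arrays left out, the arrays fitted, the filter, the variance prior, normalization, array weights, the probe set, the threshold and an actin covariate. Promoter windows were taken from RefSeq (GRCh38.p14).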

Additional observations from a re-analysis of the deposited data

Results flagged for a closer look

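For the 167 genes with values above, each group of 6 arrays was searched for an array whose gap to its nearest neighbour, over the group's range, exceeded Dixon's 95% critical value. Chance gives such a gap in about 5% of groups, and 44 of 334 had one (13.2%). Some genes, such as ITGB3, ANXA3, TSPAN12 and S1PR3, were named because their call moved without vehicle replicate 5 and 1000 pM replicate 6. Genes on the same array are also not independent, so the 5% is only a rough guide. Vehicle replicate 5 was the array in 28 of the 44 and 1000 pM replicate 6 in 8, the same arrays that had the high 3′ minus 5′ differences. Values are log2 levels.

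In 1000 pM replicate 6 the level was the lowest of the group for CA2 (6.24) and PLXDC2 (7.67) and the highest for ANPEP (8.02), MFGE8 (5.58), CKB (9.95), IGFBP5 (8.79), RAPGEF3 (6.95) and ETV5 (7.57). At 1000 pM replicate 2 was the highest array for ANO1 (8.05). At 1000 pM replicate 4 was the lowest array for COL9A3 (6.17). At 1000 pM replicate 5 was the lowest array for COL1A1 (7.87), SMR3B (6.74) and PDGFA (4.27). At 1000 pM replicate 5 was the highest array for CCNE2 (8.75).

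Vehicle replicate 5 was the lowest vehicle array for ESR1 (8.09), SEMA3C (6.85), SLC30A1 (7.35), SLC7A11 (9.21), CA2 (4.43), LGR4 (6.88), CILP (5.99) and CLDN1 (9.12). It was the lowest as well for ITGB6 (6.20), NPAS3 (5.64), EHF (6.94), NCOA4 (9.83), AFF3 (3.47), CCNE2 (7.92), PLA2G4A (6.94) and ANXA1 (9.09). It was likewise lowest for VDAC1 (9.43), RDX (9.34), ITGB3 (4.01), ANXA3 (7.95), TSPAN12 (7.41) and S1PR3 (4.85). It was the highest for CKB (9.16), RAPGEF3 (8.62), BMF (5.34), GALNT4 (7.56), NDUFA11 (11.40) and DIS3L2 (5.66). In vehicle also replicate 1 was the highest for MEOX1 (9.44) and replicate 3 was the highest for ATXN7L1 (3.52).

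Measures of the whole array showed such gaps too. The 3′ minus 5′ difference of GAPDH was 0.40 in 1000 pM replicate 6 and 1.79 in vehicle replicate 5, and that of beta-actin was 4.62 in vehicle replicate 5. The spread of an array's genes about the group means (SD, log2) was 0.286 in 1000 pM replicate 6 and 0.561 in vehicle replicate 5. In 1000 pM replicate 4 the share of probe sets above the floor was 38.6%. What part these arrays' RNA had in the gene values was not tested.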

How the results depend on the processing

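With each of the 12 arrays left out in turn 654 to 942 genes were called, 273 to 341 of them higher and 376 to 604 lower, and 491 of the 799 calls passed every time. The naming rule chose 249 called genes, of which 56 lost their call in at least 1 of these fits. Values are given for 160, and 53 of the 89 not given are among the 56. In these fits the genes described are therefore steadier than the rule's own choice. They are less steady with the spread taken from the 12 arrays alone. There 35 of 162 called genes named above lost their call, and with the replicate block 54 did. Fitted on the 12 arrays alone, 308 genes were called (153 higher, 155 lower), and with the replicate block in those arrays 213 (115 higher, 98 lower), while the 10 arrays without 1000 pM replicate 6 and vehicle replicate 5 gave 735; the cause was not tested. The replicate numbers showed no clear pairing of the arrays: same-number correlations of deviations ran from −0.51 to 0.57, and 1 of 6 arrays at 1000 pM correlated best with its own number. The deviations were from group means that include 1000 pM replicate 6 and vehicle replicate 5. These correlations therefore cannot decide whether some numbers share a batch. At an adjusted p under 0.01 485 were called, 271 of them lower. With the probe set of largest variance 537 were called, 305 of them lower, and CGN (0.14) and FGFR1 (−0.14) changed sign without passing; the cause was not tested. ESR1, called in no fit, stood at −0.0077 without the 2 arrays, in the 10 arrays alone and, an alternative chosen after seeing the data, without the 4 arrays of high actin difference, at −0.011 with array weights and −0.0025 in the block of numbers 1 to 4, and from 0.012 to 0.058 with single arrays left out. The share of higher genes with the response element was 0.394% with 1 mismatch. The remaining settings gave 690 to 1141 calls in all. The number of arrays limits precision, and genes near the floor have only bounds.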
